A study of Mus musculus with 14 samples.

Results

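Cytosolic ribosomal protein genes encode the proteins that, with ribosomal RNA, build the 60S and 40S subunits of the ribosome in the cytoplasm. They were taken here as every gene whose symbol is Rpl or Rps followed by a number and an optional short suffix, with Rplp0 to Rplp2 and Rpsa, and with pseudogene symbols dropped. The rule found 85 of 24984 genes in both count tables, 52 of the large and 33 of the small subunit. Ribosomal genes with other symbols, such as Fau, Rpl36al and Rack1, were read as a separate list.

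Each ribosome holds a single copy of most of these proteins, so cells make them in balanced amounts. Most of their mRNAs start with a cytosine followed by a run of pyrimidines, called the TOP motif, through which the mTOR pathway controls how much of each mRNA is on ribosomes. A few of the genes have paralogs with their own tissue pattern: the autosomal Rpl10l and Rpl39l, paralogs of the X-linked Rpl10 and Rpl39, are known from male germ cells, where the X chromosome is silenced in meiosis, and Rpl3l from heart and skeletal muscle.

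The libraries are bulk RNA sequencing of c-KIT(+) differentiating spermatogonia sorted from testes of C57BL/6J mice, the germ cells that follow the stem cells and precede meiosis. The study asked how gene expression changes when Cbx2, a subunit of the Polycomb repressive complex PRC1, is deleted or mutated. In the deletion experiment, 2 Rosa26-CreERT2; Cbx2[Flox/Δ] animals had tamoxifen (3 injections of 200 µL at 20 mg/mL), and 2 Rosa26-CreERT2; Cbx2[Flox/+] animals had corn oil. All 4 animals carried the recombinase, which the Rosa26 locus expresses broadly and not in germ cells alone, and genotype and tamoxifen differ together between the groups. In the 23KRA experiment, 5 untreated Cbx2[23KRA/23KRA] animals, in which lysines and arginines of the CaPS domain of CBX2 are replaced by alanine, were set against 5 untreated Cbx2[+/+] animals. The labels count 1 animal for each library and give no ages. The deletion libraries came from an mRNA kit with 20 ng of RNA, and the 23KRA libraries from a kit for total RNA that keeps strand and removes ribosomal cDNA, although the molecule field reads polyA RNA for both, so each comparison stayed within its own experiment.

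Deletion libraries held 28169990 to 31166500 counts and 23KRA libraries 14562564 to 19814511, with 19822 to 19976 and 14958 to 17330 genes detected. Levels are CPM, counts scaled to a common library total after TMM normalization, and are not comparable between the experiments, which were normalized apart. Cbx2 itself was at 95.8 ± 2.67 CPM in control and 82.5 ± 5.66 CPM in deleted cells (SD, n = 2 each; log2 fold change -0.21, SE 0.12, edgeR adjusted p = 0.971), so counts over the whole gene did not pass the test. The labels used here do not say which exons the flox allele removes. Wild-type cells of the 23KRA experiment had Cbx2 at 73.0 ± 12.6 CPM, and homozygous cells had it at 64.1 ± 17.4 CPM (SD, n = 5 each). The spermatogonial marker Kit lay between 203 and 271 CPM and Stra8 between 507 and 596 CPM in the deletion, and Kit between 232 and 303 CPM and Stra8 between 541 and 819 CPM in the 23KRA experiment. The germ cell marker Ddx4 lay between 571 and 818 CPM over both experiments, and the globins Hba-a1 and Hbb-bs were at 0 in every library. Markers of later germ cells were also present, with Prm1 between 897 and 1183 CPM in the deletion and between 29.7 and 128 CPM in the 23KRA experiment. Replicate libraries of a group differed by more than sampling noise in both experiments.

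Start-site sequences are shown first because the TOP motif lies at the start of the mRNA. Of the 85 genes, 64 had an entry in the RefSeq promoter table (GRCm38.p6), each 300 bases long with 250 before the start. Below are 60 bases before and 15 from the start, 5′ to 3′ on the gene's strand, for 5 genes with a pyrimidine run at the start, and then for Rpl10, Rpl39 and their germ-line paralogs. Capitals mark the longest stretch of C and T from 20 bases before the start to the end of the printed sequence, where it has at least 7 bases. Of equally long stretches only the first is marked. Stretches farther from the start are not marked, and that of Rpl39 is marked only from 20 bases before the start, where it is already under way.
Rpl35 (chr2:39005117-39005191, minus strand): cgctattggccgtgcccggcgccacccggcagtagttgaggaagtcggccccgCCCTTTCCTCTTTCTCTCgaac
Rpl14 (chr9:120571457-120571531, plus strand): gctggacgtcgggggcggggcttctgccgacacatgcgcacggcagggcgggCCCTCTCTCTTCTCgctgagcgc
Rps6 (chr4:86857353-86857427, minus strand): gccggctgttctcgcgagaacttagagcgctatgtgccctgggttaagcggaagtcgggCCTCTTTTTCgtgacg
Rps18 (chr17:33955651-33955725, minus strand): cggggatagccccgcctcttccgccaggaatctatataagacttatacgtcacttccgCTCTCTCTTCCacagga
Rps24, the first of 2 annotated starts (chr14:24490618-24490692, plus strand): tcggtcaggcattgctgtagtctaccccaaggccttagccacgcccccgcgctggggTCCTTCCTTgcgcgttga
Rpl10 (chrX:74270756-74270830, plus strand): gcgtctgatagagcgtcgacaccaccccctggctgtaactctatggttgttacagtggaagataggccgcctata
Rpl10l (chr12:66284387-66284461, minus strand): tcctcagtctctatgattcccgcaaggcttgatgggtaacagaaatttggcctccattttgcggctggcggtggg
Rpl39 (chrX:37085208-37085282, minus strand): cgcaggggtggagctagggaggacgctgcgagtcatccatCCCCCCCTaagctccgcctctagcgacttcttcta
Rpl39l (chr16:10170168-10170242, plus strand): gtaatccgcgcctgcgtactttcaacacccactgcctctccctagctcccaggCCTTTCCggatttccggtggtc

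A run of at least 8 pyrimidines on the gene's strand, between 20 bases before and 30 after a start, was found in 35 of the 64 genes (54.7%), against 21.5% of the 27025 genes in the table. It occurred in 23 of 40 large and 12 of 24 small subunit genes. CCGGAAG, the core of an ETS family motif, was found on either strand in 26 of the 64 promoters (40.6%) and in 9.93% of all. AAGATGGC was found in 9.38% against 3.19%, and TATAAA in 12.5% against 15.7%, each on either strand. The end of CCGGAAG read on the other strand is CTTCC, so it can overlap a pyrimidine run. These are matches of letters, not sites shown to be used. Of the sequences printed, those of Rpl35, Rpl14, Rps6, Rps18 and Rps24 carry the run across the annotated start. Rpl39 carries a run before the start and another of 8 bases, not marked, after it. Rpl10, Rpl10l and Rpl39l have no run of 8 within the searched 20 bases before to 30 after the start.

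The genes spanned a wide range of levels, compared here as CPM per kilobase of annotated exons. The median over the 83 genes with a GENCODE length was 152 for the deletion libraries and 316 for the 23KRA libraries, and the lowest levels were 0.339 and 0.140. In the deletion, Rps27l at 830 per kilobase and Rps21 at 477 were among the highest small subunit genes. Among the large subunit genes Rpl4 stood highest at 689, followed by Rpl32 at 537 and Rplp1, of the stalk that recruits elongation factors, at 459. In 23KRA the highest large subunit genes were Rpl13a (1347 per kilobase), the stalk gene Rplp2 (1119) and Rpl23a (1067). Across the 83 genes the 2 experiments' levels had a Spearman correlation of 0.65, a description of points that share the gene lengths. Library kit and animals differ together between the experiments.

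A few genes had low levels in both experiments. Rpl26 had 13, 5, 5 and 5 counts in the 4 deletion libraries and at most 12 in any 23KRA library, and it was the 1 gene of the 85 that did not pass the filter on low counts. Rpl30 stood at 3.35 and 0.955 per kilobase in the 2 experiments, and Rps27 at 4.32 and 2.16. Rpl34 stood at 8.73 and 1.32, Rpl3l at 4.77 and 4.59, and the X-linked Rps4x at 6.04 and 10.5. Rps15a, next lowest among small subunit genes in the deletion, was at 26.3 per kilobase over an annotated exon length of 5395 bases. The exons counted for a level include every annotated transcript, so a long rare transcript lowers the level per kilobase.

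How much of a transcript is unique could be read from the GENCODE annotation of GRCm38. A single protein-coding transcript stood for each gene, that of lowest number in its name. Its 50-base windows were searched for in transcripts of other genes. The percent shared therefore leaves out exons found only in other transcripts of the gene, which the levels per kilobase include. A median of 49.1% of windows was shared, and 40 of 83 genes shared over 50%. Rps27 shared 98.6% of its windows, Rpl9 93.3% and Rpl10 92.1%, whereas Rpl39l and Rpl3l shared none and Rpl10l 7.60%. Among other genes of low level, Rpl26 shared 71.3%, Rpl30 47.8% and Rpl34 37.9%. Level per kilobase and percent shared had a Spearman correlation of -0.12 in the deletion and 0.15 with 23KRA levels over the 83 genes. How reads with several places were treated is not given, so absolute levels of genes with shared windows are uncertain, and so is every ratio between such genes.

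Many of these genes differed between 23KRA libraries of different replicate number. Each number from 1 to 5 is carried by 1 wild-type and 1 homozygous library, and the labels do not say what a number stands for. Summed over the 84 genes that passed the filter, wild-type libraries 1 to 5 held 26027, 34283, 29905, 33970 and 27501 CPM. The homozygous libraries 1 to 5 held 28123, 35286, 32657, 34737 and 29023 CPM. Both genotypes thus ran in the same order, with number 1 lowest, then 5, 3, 4 and 2. The highest library was 1.36 times the lowest.

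**Figure D1:**
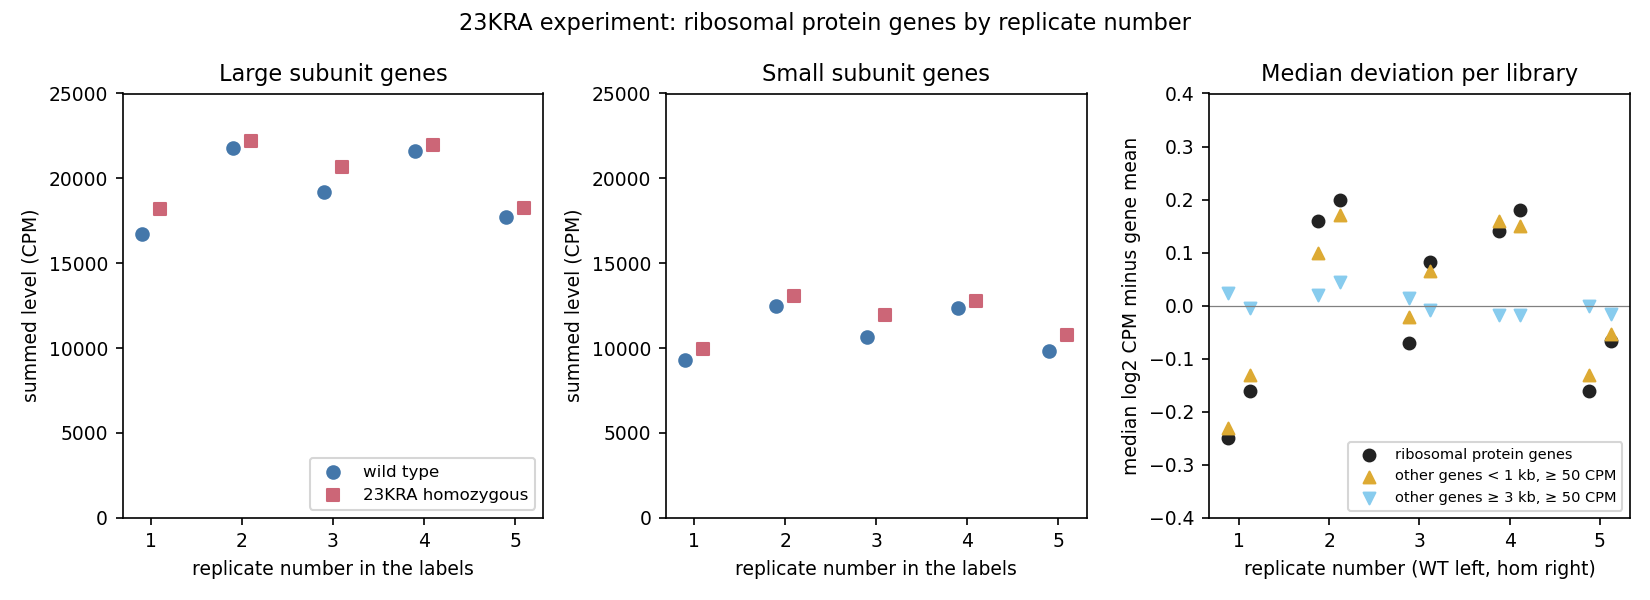
Summed level (CPM) of the large (left) and small (middle) subunit genes in each 23KRA library by replicate number, circles wild type and squares homozygous; right, the median log2 deviation from each gene's mean for the ribosomal protein genes, other genes under 1 kilobase and other genes of 3 kilobases or more. Numbers 2 and 4 lie highest and number 1 lowest in both genotypes, the short genes lie near the ribosomal protein genes, and the long genes stay near 0.

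In a fit with genotype and replicate number, 46 of the 84 genes tested differed by number (edgeR quasi-likelihood F test, adjusted p under 0.05), where 3.62 percent of the 14208 genes tested did. Without both libraries of number 1 the count was 21, and without those of number 5 it was 29. The call was made for 25 of 51 large and 21 of 33 small subunit genes. Of the 46 genes, 44 had their highest mean in number 2 or 4, with Rpl13 and Rpl35a the exceptions, and 36 had their lowest in number 1. The median ratio of the highest to the lowest number among the 46 was 1.39, and the largest was 1.85, for Rpl37a. Abundance bears on the background: among the 2288 genes at or above the mean level of the lowest of the 46, 228 differed by number (9.97%).

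Rps24, of the small subunit, was among the genes of smallest p. It had 776, 1128, 984, 1133 and 881 CPM in wild-type and 895, 1244, 1073, 1129 and 966 CPM in homozygous libraries (F = 19.2, edgeR adjusted p = 6.45e-05). The 4 libraries of numbers 2 and 4 stood above the other 6.

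Rpl21 held 713, 981, 775, 980 and 772 CPM in wild-type and 747, 996, 832, 995 and 771 CPM in homozygous libraries 1 to 5 (edgeR adjusted p = 8.16e-05). Numbers 2 and 4 again stood above all others. Rpl13a, which also acts in translational silencing outside the ribosome, held 1280, 1702, 1596, 1644 and 1379 CPM in wild-type and 1364, 1736, 1531, 1684 and 1328 CPM in homozygous libraries (edgeR adjusted p = 0.000132). Rpl35, whose promoter carries the longest run printed above, held 314, 455, 439, 509 and 366 CPM in wild-type and 350, 491, 458, 498 and 393 CPM in homozygous libraries (edgeR adjusted p = 0.000147). In Rpl35 the 4 libraries of numbers 1 and 5 were the lowest, and number 3 lay close to number 2.

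**Figure D2:**
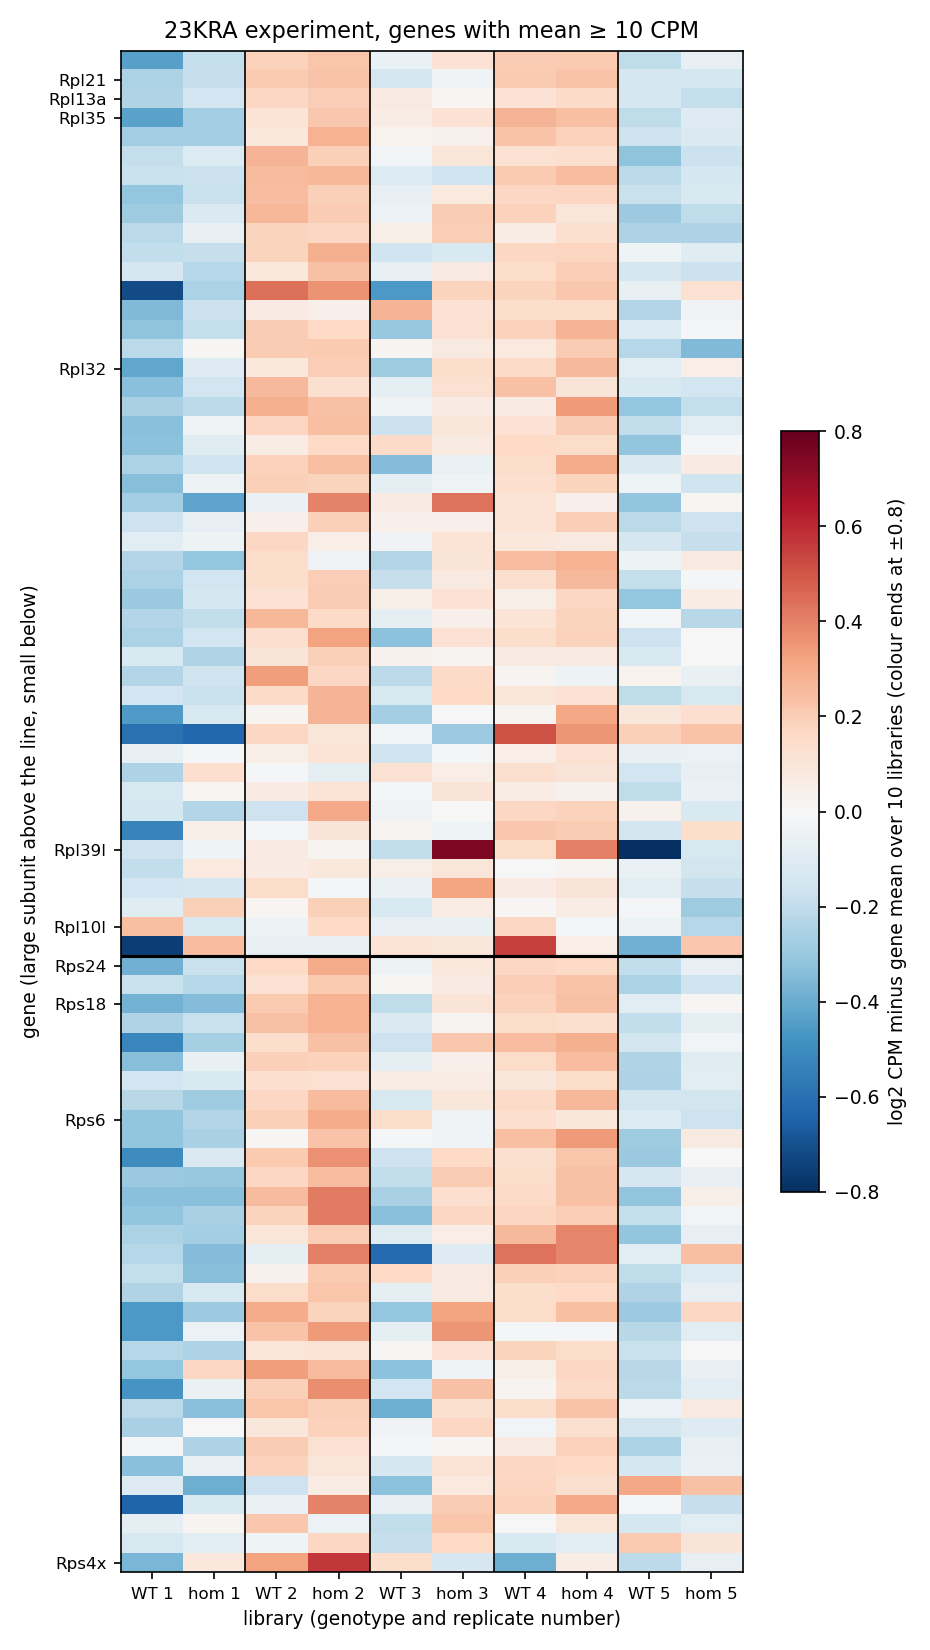
Log2 CPM minus the gene's mean over the 10 libraries of the 23KRA experiment, for the 79 ribosomal protein genes with a mean of at least 10 CPM, large subunit above the line and small below, each ordered by the p of the replicate-number test. Columns are libraries in pairs of the same number (WT, wild type; hom, homozygous), 10 genes are named beside their rows, and numbers 2 and 4 are red and number 1 blue across most rows.

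The pattern was shared widely, also by genes that did not pass. In 66 of 84 genes all 4 libraries of numbers 2 and 4 lay above both libraries of number 1, against 13.1 percent of all genes tested. In 56 they lay above all 4 libraries of numbers 1 and 5, against 4.96 percent. In 77 of 84 the wild-type and homozygous values correlated above 0 over the 5 numbers, against 61.9 percent. These 3 patterns were chosen after the values were seen. The pyrimidine run of the start sites was in 18 of 32 genes called (56.2%) and in 16 of 31 tested and not called (51.6%).

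The paralogs were not among the genes that passed. Over numbers 1 to 5 the mean level of Rpl10l was 86.9, 86.5, 79.2, 87.7 and 75.6 CPM (edgeR adjusted p = 0.886), a ratio of 1.16 between highest and lowest. Rpl39l had means of 18.0, 19.9, 24.5, 23.4 and 14.1 CPM (edgeR adjusted p = 0.536). Rpl3l, Rpl22l1, Rpl7l1 and Rps4l had adjusted p of 0.937, 0.938, 0.777 and 0.754 in the same edgeR test. Rps27l, the p53-responsive relative of Rps27, had means of 34.2, 49.9, 46.1, 51.9 and 40.9 CPM (edgeR adjusted p = 0.383), an order that puts numbers 2 and 4 on top although it did not pass. Whether paralogs differ from the other genes in this respect was not tested.

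Other genes of the translation machinery were read from lists chosen by function. Over all genes tested 3.62 percent passed the replicate-number test, and 9.97 percent of the abundant genes described above. Of the 4 ribosomal genes with other symbols 2 passed (50%), among them Fau, which held 323, 451, 408, 452 and 356 CPM over numbers 1 to 5. Of 14 elongation factors and other TOP mRNAs 4 passed (28.6%), and they did not share an order. Eef1a1, which brings aminoacyl-tRNA to the ribosome, was lowest in number 1 (1317 CPM) and highest in number 4 (1672 CPM), whereas Pabpc1, the poly(A)-binding protein gene, was highest in number 1 (732 CPM) and lowest in number 2 (585 CPM). Tpt1 was lowest in number 1 at 444 CPM, and Eif3f was lowest there too at 36.7 CPM. Of 65 ribosome assembly factors 3 passed (4.62%), a share near that of all genes: the nucleolar proteins Npm1, Ncl and Nop58. Of 12 RNA polymerase I genes Taf1d and Ubtf passed (16.7%), in different orders. Taf1d was highest in number 2 (588 CPM) and lowest in number 5 (424 CPM), whereas Ubtf was highest in number 1 (339 CPM) and lowest in number 4 (247 CPM). None of 78 mitochondrial ribosomal protein genes passed, although their median deviations of -0.12, 0.12, 0.0011, 0.094 and -0.069 over numbers 1 to 5 ran in the same order of 1, 5, 3, 4 and 2.

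Gene length moved with the same numbers. Median log2 deviations of the ribosomal protein genes were -0.21, 0.17, 0.0042, 0.17 and -0.13 over numbers 1 to 5. Those of 112 other genes under 1000 bases with at least 50 CPM were -0.18, 0.15, 0.0045, 0.17 and -0.092, and 37 of them (33%) differed by number. The 3058 other genes of 3000 bases or more stayed between -0.018 and 0.027, and 135 of them (4.41%) differed. Spermatid markers moved in another order, with median deviations of -0.065, -1.19, 0.013, 0.40 and 0.87, and 4 of 6 passed (Prm1, Prm2, Tnp1 and Tnp2). Their summed level ran from 259 to 972 CPM in wild-type and from 216 to 986 CPM in homozygous libraries. Pachytene spermatocyte markers passed in 3 of 6 (Ldhc, Hspa2 and Pgk2), the macrophage genes H2-Ab1 and Cd74 in both of 2 tested, and spermatogonial markers in 3 of 8 (Stra8, Dmrt1 and Dmrtb1). Over all genes tested 3.62 percent passed. Wild-type replicate 3 held the most of both macrophage genes, 55 CPM of Cd74 and 48.4 CPM of H2-Ab1. Wild-type libraries averaged 15.8 ± 22.4 CPM of Cd74 and 18.1 ± 17.3 CPM of H2-Ab1, and homozygous libraries 7.14 ± 3.85 and 10.3 ± 3.68 CPM (SD, n = 5 each). Neither gene passed between the genotypes. Summed levels ran from 155 to 339 CPM (wild-type) and 131 to 326 CPM (homozygous) for the pachytene list, from 8.18 to 129 and 13.6 to 33.4 CPM for the 7 macrophage and leukocyte markers, and from 2685 to 2933 and 2636 to 2925 CPM for the spermatogonial list. None of the 5 Sertoli, 2 Leydig, 2 peritubular myoid and 3 endothelial markers tested passed. The Sertoli list summed to 31.9 to 60.4 CPM in wild-type and 33.7 to 59.1 CPM in homozygous libraries. The peritubular myoid list summed to 2.01 to 6.12 and 2.7 to 8.2 CPM. Within these lists, Amh and Acta2 were at 0 in all 5 homozygous libraries. The part of length or of other cells in the pattern of the ribosomal protein genes was not tested, and in bulk RNA fewer cells of a type and less RNA per cell cannot be told apart.

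Large and small subunit genes kept close to a fixed proportion in each experiment. The large subunit held 54.1% to 54.8% of the summed level in the deletion libraries and 63.0% to 64.7% in the 23KRA libraries. Over wild-type libraries 1 to 5 it was 64.2%, 63.5%, 64.3%, 63.6% and 64.3%, and over homozygous libraries 64.7%, 63.0%, 63.4%, 63.2% and 63.0%. The group means were 64.0% ± 0.396 and 63.5% ± 0.713 (SD, n = 5 each), so the values of the genotypes overlap. Large subunit genes summed to 16700 to 21783 CPM in wild-type and small subunit genes to 9327 to 12500 CPM.

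No ribosomal protein gene passed the test between 23KRA homozygotes and wild type. Of the 84 tested, 0 passed (edgeR quasi-likelihood test), where 0 percent of 14208 genes did, and 1 of the 84 had an unadjusted p under 0.05, against 3.04 percent of all genes. That gene was higher, against 1.68 percent of all genes that had such a p and were higher and 1.36 percent that were lower. The groups did not overlap in 0 of the 84, against 0.436 percent of all genes with the homozygotes higher and 0.274 percent with them lower. DESeq2 and limma-voom also called 0. Summed levels averaged 30337 ± 3727 CPM over wild-type libraries and 31965 ± 3264 CPM over homozygous ones (SD, n = 5 each), and the groups overlap from 28123 to 34283 CPM. The log2 fold changes nonetheless lay on 1 side: 77 of 84 were above 0, against 50.8 percent of all genes, with a median of 0.088 against 0.0034. Large subunit genes had a median of 0.062 (46 of 51 above 0) and small subunit genes of 0.12 (31 of 33 above 0). Without wild-type replicate 1 the median over all was 0.034, with 59 of 84 above 0, that of the large subunit 0.015 (31 of 51 above 0) and that of the small 0.074 (28 of 33). Without homozygous replicate 4 the large subunit median was 0.023 and the small 0.074. The large subunit median was 0.035 once wild-type replicate 5 was left out, 0.10 for wild-type replicate 4, and 0.11 for either wild-type replicate 2 or homozygous replicate 5. Over all genes of the group, without homozygous replicates 2 or 4, left out in turn, it was 0.055 or 0.050.

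Set side by side by number, the homozygous library held more than the wild-type library in 5 of 5 numbers. The excess was 8.05% in number 1, 2.93% in number 2, 9.20% in number 3, 2.26% in number 4 and 5.53% in number 5. The excess is small beside the spread over numbers, and numbers are not known to pair animals. Other genes under 1000 bases lay on the same side, with 76 of 112 above 0 (67.9%) and a median of 0.066, whereas 46.9% of the other genes of 3000 bases or more were above 0. Their part in the side taken by the ribosomal protein genes was not tested. Beside them, all 6 spermatid markers had log2 fold changes below 0, with a median of -0.33, none of them passing.

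**Figure D3:**
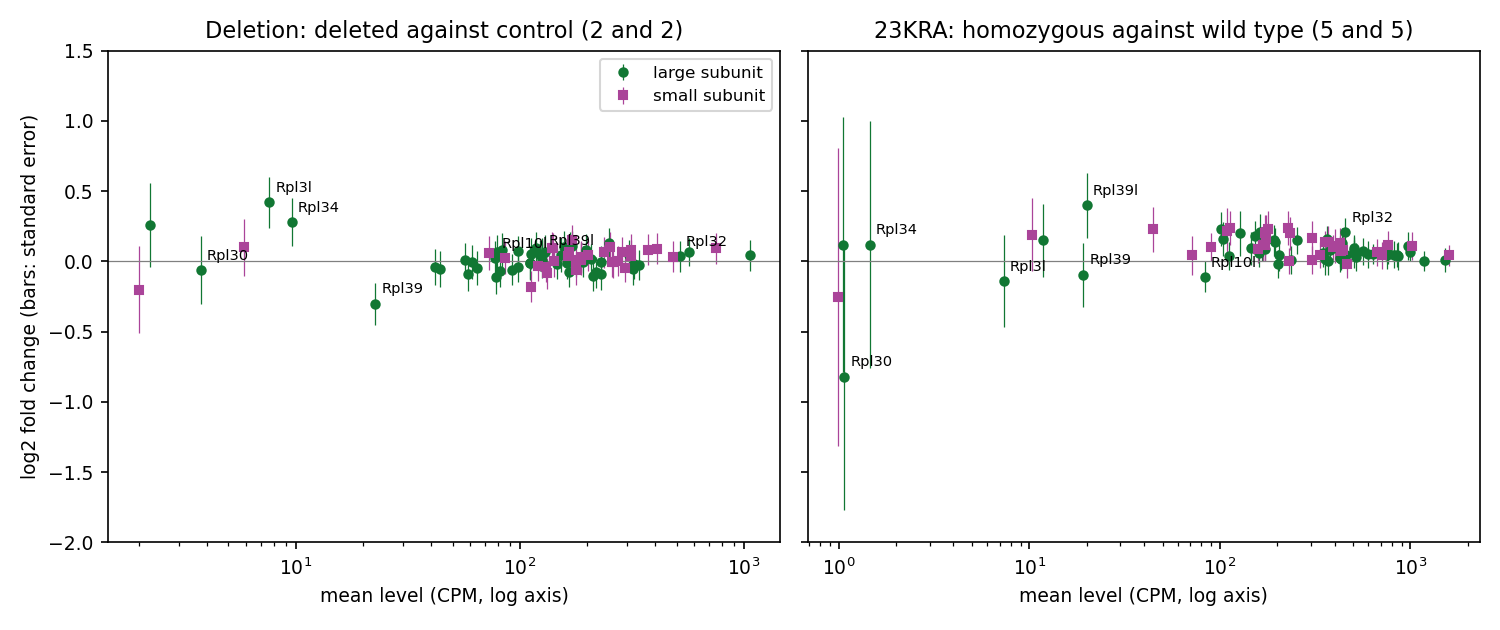
Log2 fold change (mutant minus control, bars are standard errors) of the 84 ribosomal protein genes tested against mean level in CPM on a log axis, for the deletion (left, 2 and 2 libraries) and 23KRA (right, 5 and 5 libraries). Points of both subunits crowd just above 0 on the right, with a median of 0.088, and on both sides of 0 on the left, and the wide bars belong to genes of few counts such as Rpl30.

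Rpl32 had the smallest p in the 23KRA comparison. Its wild-type libraries 1 to 5 held 337, 477, 369, 500 and 423 CPM and its homozygous libraries 418, 515, 496, 538 and 466 CPM (log2 fold change 0.21, SE 0.098, unadjusted p = 0.0449, edgeR adjusted p = 1). The groups overlap. Rps10 held 81.0 to 128 CPM in wild-type and 106 to 145 CPM in homozygous libraries, and its log2 fold change was 0.24 (SE 0.12). Rps19, mutated in Diamond-Blackfan anaemia, held 159 to 261 and 208 to 291 CPM, with a log2 fold change of 0.24 (SE 0.12). The X-linked Rpl10 (0.23, SE 0.12) and Rps3, of the small subunit (0.14, SE 0.080), completed the 5 of smallest p above 0. Below 0 the 5 of smallest p were Rpl10l, Rpl30, Rpl3l, Rpl39 and Rps27, which apart from Rpl10l are among the genes of lowest level. Of these Rpl30 lay farthest from 0 at -0.82, with an SE of 0.95 on 0.201 to 2.44 CPM.

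In the deletion no ribosomal protein gene passed the test either. Of the 84 tested, 0 passed (edgeR quasi-likelihood test), where 0.012 percent of 16725 genes did, and 1 had an unadjusted p under 0.05, against 4.74 percent of all genes. It was higher, as 2.05 percent of all genes were at such a p, and 2.69 percent were lower. DESeq2 and limma-voom called 0 of the 84. The 2 control libraries held 15826 and 15435 CPM in all and the 2 deleted libraries 16902 and 14974 CPM, so the deleted libraries lay on either side of the controls. In deleted replicate 1, 72 of the 84 genes stood above their own mean over the 4 libraries, and in deleted replicate 2 it was 4, against 50 and 28 in the controls. Over all genes tested 48.4% and 51.2% stood above their own mean in these deleted libraries, and 50% and 52.6% in control replicates 1 and 2. Other short genes moved with the ribosomal protein genes here too: median log2 deviations in deleted replicates 1 and 2 were 0.10 and -0.071 for the ribosomal protein genes, 0.10 and -0.082 for 196 other genes under 1000 bases, 0.13 and -0.076 for the mitochondrial ribosomal protein genes, and -0.0089 and 0.034 for 3038 other genes of 3000 bases or more. The part of length was not tested. Of the 84 log2 fold changes 51 were above 0, against 49 percent of all genes, with a median of 0.028 (0.0092 in the large and 0.033 in the small subunit). The median was -0.063 without deleted replicate 1, with 13 of 85 genes tested above 0, and 0.11 without deleted replicate 2, with 68 of 85 above 0. In 5 genes both deleted libraries were above both controls (15.6 percent of all genes) and in 10 both were below (17.5 percent).

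Rpl3l had the smallest p in the deletion. It was at 6.66 and 6.36 CPM in control and 7.91 and 9.55 CPM in deleted cells (log2 fold change 0.42, SE 0.18, unadjusted p = 0.0297, edgeR adjusted p = 0.971). The groups did not overlap. Rpl34 followed above 0, at 8.29 and 9.06 CPM in control and 11.3 and 9.76 CPM in deleted cells (0.28, SE 0.17), and then Rps16, Rpl7l1 and Rpl19 at 0.15, 0.13 and 0.11. Below 0, the X-linked Rpl39 was at 23.2 and 26.7 CPM in control and 21.5 and 19.1 CPM in deleted cells (-0.30, SE 0.15, edgeR adjusted p = 0.971). Rps28 was at 117 and 120 CPM in control and 106 and 103 CPM in deleted cells (-0.18, SE 0.11). Rpl37a, Rpl36 and Rpl8 lay at -0.10, -0.11 and -0.092.

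Among the other genes of the translation machinery none passed in either comparison. In the deletion the median log2 fold change was 0.0056 over 14 elongation factors and other TOP mRNAs, 0.069 over 65 ribosome assembly factors, 0.017 over 12 RNA polymerase I genes and 0.074 over 78 mitochondrial ribosomal protein genes. For 23KRA these medians were -0.010, -0.0083, -0.055 and 0.057. The 4 ribosomal genes with other symbols had medians of 0.042 and 0.11. Ncl, the nucleolin gene, was at 1748 ± 148 CPM in control and 1905 ± 183 CPM in deleted cells (SD, n = 2 each). Wild-type cells held 5679 ± 437 CPM of it and homozygous cells 5621 ± 296 CPM (SD, n = 5 each). Eef2, which moves the ribosome along the mRNA, was at 500 ± 25.3 and 462 ± 29.1 CPM in the deletion. Of the marker lists, 1 of 5 Leydig markers fell in the deletion (Cyp17a1, edgeR adjusted p = 0.00315), from 6.07 ± 1.84 to 1.66 ± 0.281 CPM (SD, n = 2 each), and the list summed to 17.2 to 22.0 CPM in control and 11.9 to 12.8 CPM in deleted libraries.

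The germ-line paralog Rpl10l was counted in every library at over 70 CPM. In the deletion it held 79.2 and 74.4 CPM in control and 81.0 and 75.1 CPM in deleted cells, so the groups overlap. The 23KRA libraries held 97.9, 80.6, 79.0, 93.1 and 80.6 CPM in wild-type and 75.8, 92.5, 79.5, 82.4 and 70.7 CPM in homozygous cells (log2 fold change -0.11, SE 0.11). Per kilobase it stood at 1.09 to 1.16 times Rpl10 in the deletion and at 0.573 to 1.19 times in the 23KRA experiment. Rpl10 shares 92.1% of its windows with other transcripts, so this ratio is uncertain.

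Rpl39l held 127 and 120 CPM in control and 139 and 116 CPM in deleted cells. Its 23KRA libraries held 17.2, 20.2, 16.8, 21.3 and 10.6 CPM in wild-type and 18.8, 19.6, 32.3, 25.5 and 17.6 CPM in homozygous cells (log2 fold change 0.40, SE 0.23, unadjusted p = 0.0912, edgeR adjusted p = 1). The genotypes overlap, and the log2 fold change was 0.24 without homozygous replicate 3 and 0.27 without wild-type replicate 5. Per kilobase it stood at 3.31 to 4.76 times Rpl39 in the deletion and at 0.368 to 1.56 times in the 23KRA experiment. Markers of later germ cells had other levels too, in CPM that were normalized apart. Spermatid markers summed to 2627 to 2954 CPM in control, 2279 to 2613 CPM in deleted and 216 to 986 CPM in 23KRA libraries. Pachytene spermatocyte markers summed to 930 to 956, 796 to 877 and 131 to 339 CPM. The kits, the animals and these marker levels differ together between the experiments, and their parts in this cannot be told apart.

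**Figure D4:**
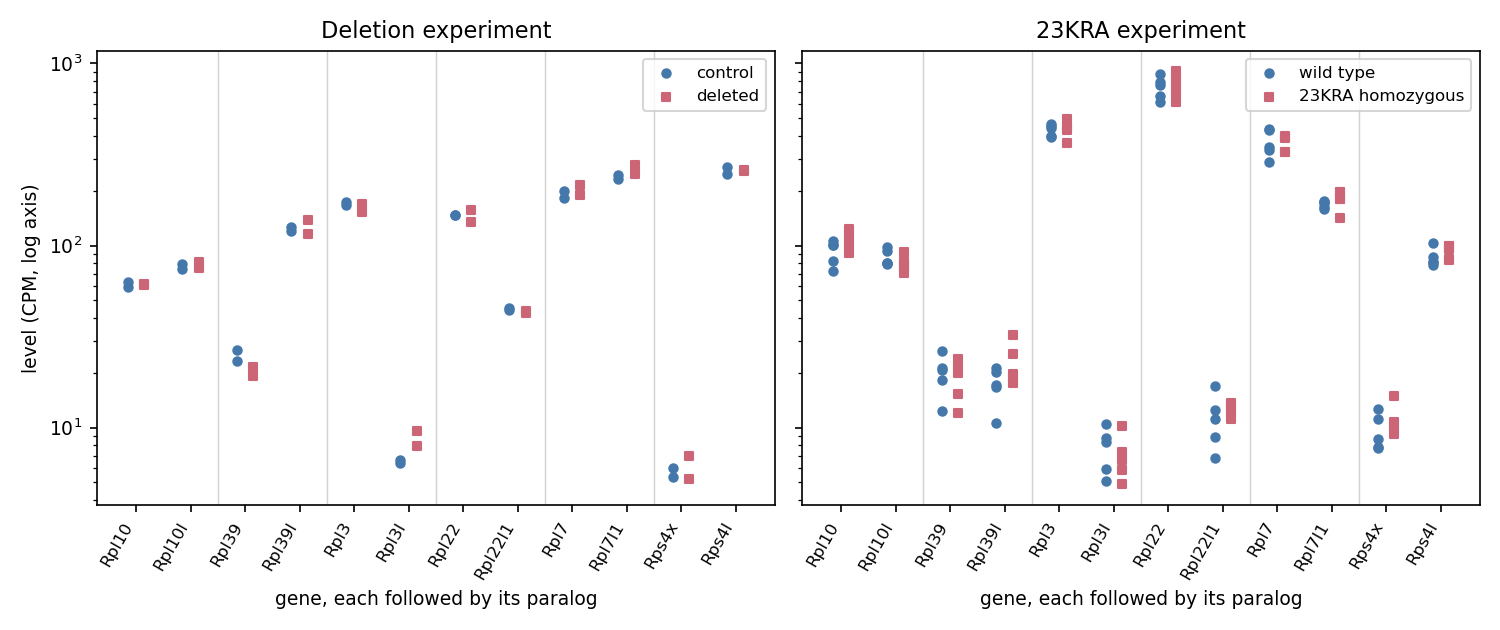
Level (CPM, log axis) of 6 ribosomal protein genes, each followed by its paralog, in every library of the deletion (left) and 23KRA (right) experiments, circles control or wild type and squares mutant. Rpl10l lies near Rpl10 in both experiments, Rpl39l lies above Rpl39 in the deletion libraries and overlaps it in the 23KRA libraries, and Rpl3l lies far below Rpl3.

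Rpl3l stayed low, at 0.0324 to 0.0531 times Rpl3 per kilobase in the deletion and 0.0094 to 0.0198 times in the 23KRA experiment, where its wild-type libraries held 5.09 to 10.4 CPM and its homozygous libraries 4.89 to 10.2 CPM (log2 fold change -0.14, SE 0.33). Rpl22l1 was level with Rpl22 per kilobase in the deletion, at 1.00 to 1.20 times, and at 0.0410 to 0.0817 times in the 23KRA experiment. Rpl7l1 stood at 0.454 to 0.482 times Rpl7 in the deletion and 0.148 to 0.222 times in the 23KRA experiment. Rps4l, which has no position in the annotation used, was at 247 and 269 CPM in control and 260 and 256 CPM in deleted cells, above the 5.20 to 6.99 CPM of the X-linked Rps4x. Among 23KRA libraries Rps4l held 78.4 to 103 CPM and Rps4x 7.68 to 14.9 CPM. Rps4x shares 72.2% of its windows with other transcripts.

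The X chromosome carries 4 of the genes, and their levels ranged widely. Rpl36a held 171 to 242 CPM in wild-type and 173 to 228 CPM in homozygous libraries of the 23KRA experiment, and Rpl10 72.6 to 106 and 91.3 to 123 CPM. Rpl39 held 12.3 to 26.4 and 12 to 23.7 CPM. None of the 4 passed in any of the 3 tests.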

How the data were processed

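The authors deposited 2 tables of unnormalized read counts by gene symbol, 1 per experiment. Per the submitters' processing notes the build was mm10 and the tools were STAR 2.5.3, Subread 1.5.0 with featureCounts, Trim Galore 0.4.3 and SAMtools 1.4.1. No source used here gives the annotation, strand setting or treatment of multi-mapped reads, so overlapping, antisense and near-identical genes may share counts. Python 3.11.15 and R 4.3.3 were used, with DESeq2 1.42.0, limma 3.58.1 and edgeR 4.0.16. In edgeR, filterByExpr removed low genes, TMM scaled the libraries, and groups were compared by quasi-likelihood F tests (two-sided) with Benjamini-Hochberg adjustment over all genes tested at 0.05. The replicate-number test took the 4 number coefficients together beside genotype. SE is the log2 fold change divided by the square root of F. P-values weigh a difference against the spread between libraries, and amplified reads are not independent molecules. In the replicate-number test that spread is what remains after genotype and number, with 1 library of each genotype per number.

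The models were tested on simulated data first, where false calls of the replicate-number test sometimes exceeded the threshold share. Positions and lengths come from GENCODE (GRCm38), promoters from RefSeq. Named genes are Cbx2, the paralogs with their parent genes, X-linked genes, the 3 highest and lowest per kilobase in each subunit, the 5 of smallest p per direction, the 5 of smallest p by number, and up to 3 members of each pathway list that passed or else its most abundant. A few genes under this rule are not reported here. Eif3f, Tpt1 and other genes named beyond this rule were chosen after their values were seen. The genes, lists and markers were chosen with earlier results of these data known. Alternatives were other scalings, filters and tools, a replicate block and leaving out libraries.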

Additional observations from a re-analysis of the deposited data

Results flagged for a closer look

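Sets of 5 values, 1 per library of a group, were examined for a library far from the other 4. Of 92 such sets 2 were flagged, and chance alone gives about 1 in 20. Rps4x was at 14.9 CPM in homozygous replicate 2 of the 23KRA experiment, and the nearest other homozygous library was at 10.7 CPM. Rpl26 was at 0.0573 CPM in homozygous replicate 5, which is 1 count, where the other 4 homozygous libraries had 0. With the other 4 at 0 any count is flagged, so this flag says nothing about the library.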

How the results depend on the processing

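The count of ribosomal protein genes passing was 0 in both mutant comparisons under every scaling, filter and tool run and without each library in turn. The 46 genes that differed by replicate number became 45 with DESeq2 size factors, 54 with no filter, 59 with limma-voom and 32 with no genotype term. Without both libraries of number 1 the count was 21, and without those of number 5 it was 29, all among the 46. Leaving out both libraries of a number gave 21 to 53, on fewer libraries. Leaving out 1 library moved the deletion median from -0.063 to 0.11 (large subunit -0.076 to 0.10, small -0.046 to 0.14) and the 23KRA median from 0.034 to 0.13 (large 0.015 to 0.11, small 0.074 to 0.17). Rpl10l turned to -0.021 without control replicate 2 and -0.029 without deleted replicate 1, within a range of -0.029 to 0.079, and Rpl39l to -0.091 without deleted replicate 1, within -0.091 to 0.17. The cause was not tested. In the 23KRA comparison 59 to 80 of the 84 genes lay above 0 when each library was left out.

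With the replicate number as a block, 0 ribosomal protein genes passed in either experiment, and the medians were 0.026 in the deletion and 0.086 in 23KRA. In 23KRA 25 of 84 then had an unadjusted p under 0.05, against 6.41% of all genes, smallest for Rpl32 (log2 fold change 0.22, edgeR adjusted p = 0.469). Genes passing over the whole table went from 2 to 62 in the deletion and from 0 to 2 in 23KRA. The labels state no pairing, so the numbers were not taken to pair animals in the main fits. Same-number libraries had correlations of 0.029, 0.19, -0.011, 0.092 and 0.22 in their deviations in 23KRA, and 3 of 5 matched best with their own number. Both deletion correlations were 0.16, and both deletion numbers matched best with their own. Correlations of this size cannot decide whether a number pairs animals. With 2 libraries a group, the deletion can show only large differences.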

Other observations

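Symbols like those of the ribosomal protein genes but outside the rule also held counts. Over all deletion libraries together Rpl14-ps1 had 14.6 CPM (of unscaled totals), and over all 23KRA libraries 46.3 CPM. Rpl37rt had 17.9 and 9.37 CPM. Rps15a-ps6 had 6.90 and 2.24 CPM. Rps27rt, Rplp2-ps1 and Rpl34-ps1 had 0 counts in every library.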
